A study of Mus musculus with 2 samples.

Results

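Genes for enzymes and subunits that remodel nucleosomes or write repressive chromatin marks were examined in the optic nerves of Tcf7l2 mutant mice: Smarca4, Smarca2, Smarcc1, Chd7, Chd8, Ep400, Ezh2, Eed, Dnmt1 and Dnmt3a. They were chosen by name, and all 10 were found, each in 1 row per library with no other gene name in the row, among 23951 gene symbols present in both libraries. RNA-seq was carried out on optic nerves at P12 (postnatal day 12) from control mice (1 library) and from Tcf7l2ΔHMG mice (1 library). Both genotypes carried Olig1-Cre, which acts in the oligodendrocyte (OL) lineage. The control had 1 floxed and 1 intact Tcf7l2 allele (labelled Tcf7l2 c/+; OLig1-cre), so it was heterozygous for the deletion in these cells, and the mutant had the floxed allele on both chromosomes (Tcf7l2 c/c; OLig1-cre). Cre removes exon 11 in frame, and with it the HMG box that binds DNA, so that a shortened Tcf7l2 transcript and protein can still be made. Other cells of the nerve, such as astrocytes, microglia and vascular cells, are not in that lineage. The mice were of mixed strain background, and the number of animals behind each library is not given in the sources used here.

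Nucleosomes limit the access of transcription factors to DNA. ATP-driven remodellers such as the BAF and CHD enzymes slide or evict them, whereas Polycomb repressive complex 2 (PRC2) methylates histone H3 and DNA methyltransferases methylate cytosine, both linked to silencing. In OLs, Smarca4 (also called Brg1) is known to be directed to differentiation genes together with Olig2, Chd7 to act with Sox10, and Ezh2 to be high in progenitors and to decline as they mature.

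RefSeq promoters (assembly GRCm38.p6) were found for 9 of the 10 genes, all but Chd7, as 13 start sites, since Dnmt1 and Dnmt3a had several. The 250 bases before these starts held a median of 23 CpG dinucleotides, compared with 6 over 32851 promoters of the same length, of which 13.3% held at least 23. The number ranged from 40 at a start of Dnmt3a to 2 at a start of Dnmt1, so not every window was rich in CpG. Windows of Dnmt3a overlap in part and were counted separately. The windows of the members with the largest differences between genotypes in either direction, Ezh2 and Smarca2 (lower in the mutant) and Chd8 (higher), are printed 5′ to 3′ on the strand of the gene, with the CCAAT box, read on either strand as CCAAT or ATTGG, in capitals. The Ezh2 window is chr6:47595031-47595280 (minus strand), that of Smarca2 chr19:26604910-26605159 (plus strand) and that of Chd8 chr14:52257761-52258010 (minus strand).
Ezh2: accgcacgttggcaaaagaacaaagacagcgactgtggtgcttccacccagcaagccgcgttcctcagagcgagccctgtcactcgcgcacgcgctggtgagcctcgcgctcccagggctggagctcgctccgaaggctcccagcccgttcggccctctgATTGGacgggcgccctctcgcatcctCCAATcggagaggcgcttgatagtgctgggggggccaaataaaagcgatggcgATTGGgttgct
Smarca2: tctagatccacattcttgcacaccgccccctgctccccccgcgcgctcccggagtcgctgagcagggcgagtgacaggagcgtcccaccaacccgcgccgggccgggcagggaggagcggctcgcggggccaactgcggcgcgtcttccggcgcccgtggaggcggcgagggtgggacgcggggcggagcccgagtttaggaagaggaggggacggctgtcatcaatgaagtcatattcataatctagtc
Chd8: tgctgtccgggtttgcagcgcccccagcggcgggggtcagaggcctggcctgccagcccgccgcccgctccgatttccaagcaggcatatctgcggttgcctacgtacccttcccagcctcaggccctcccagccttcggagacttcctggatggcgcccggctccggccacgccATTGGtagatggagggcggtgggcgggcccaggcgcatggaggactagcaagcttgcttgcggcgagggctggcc

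The CCAAT box occurred 3 times in the Ezh2 window, a number reached by 2.79% of all promoters, 1 time in that of Chd8 and not in that of Smarca2. It also occurred 3 times (2 of them overlapping, as CCAATTGG) and 4 times at 2 of the 3 starts of Dnmt1. The log2 ratio of Dnmt1 was 0.02, so the count is not particular to Ezh2. The CCAAT box was present in 4 of the 13 member windows and in 33.8% of all promoters. The core motif of TCF/LEF factors, ATCAAAG, searched on both strands, was present in 0 of the 13 windows and in 3.21% of all promoters. The SOX-type motif ACAAAG, also searched on both strands and sharing the letters CAAAG with the former but not contained in it, was present in 2 of the 13, those of Ezh2 and of 1 start of Dnmt3a, and in 16.5% of all promoters. The E2F-type motif TTTGGCGC, on both strands, was present in 0 of the 13 and in 0.417% of all promoters, and the NRF1-type motif GCGCATGCG, on both strands, in 1 (Smarcc1) and in 1.45%. These are matches of letters near the start and say nothing of binding or of distant elements.

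Levels are given as FPKM, the fragments per kilobase of transcript, scaled to the mapped fragments of the library, which Cufflinks computed with a confidence interval for each value. The interval describes uncertainty within 1 library and leaves out differences between animals, and with 1 library per genotype no difference was tested. Differences are given as log2 ratios of mutant to control FPKM after 0.1 was added to each, which understates the change of low genes, and a gene was called when it differed by more than 1.5-fold. Of 14199 genes with at least 1 FPKM in 1 or both libraries, 15.4% were called higher and 8.52% called lower in the mutant, and their median log2 ratio was 0.05. All 10 members passed this filter. The depth, read from the interval bounds of short unnamed rows, was 27.6 (control) and 39.9 (mutant) when fragments were divided by 1e6, so that 3 fragments on 1 kb equal 0.109 and 0.0751 FPKM. Tcf7l2 itself had 17.8 FPKM in control nerves and 14.6 FPKM in the mutant, a value over the whole gene that cannot show the loss of exon 11.

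All 10 members were expressed in both libraries, between 6.30 and 36.9 FPKM. Their median was 15.8 FPKM in control nerves and 14.3 FPKM in the mutant, compared with 9.62 and 9.96 FPKM over all genes compared. None of the 10 was called, neither higher nor lower. Ezh2 came closest, with a log2 ratio of −0.53. The ratios of Smarca2, Chd7 and Eed were −0.38, −0.32 and −0.29, that of Chd8 was 0.34, and the other 5 stayed within 0.15 of 0. The median log2 ratio of the members was −0.08, and 8 of them lay below and 2 above the median of all genes. In whole nerve, fewer cells of a type and less RNA per cell cannot be told apart.

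**Figure D1:**
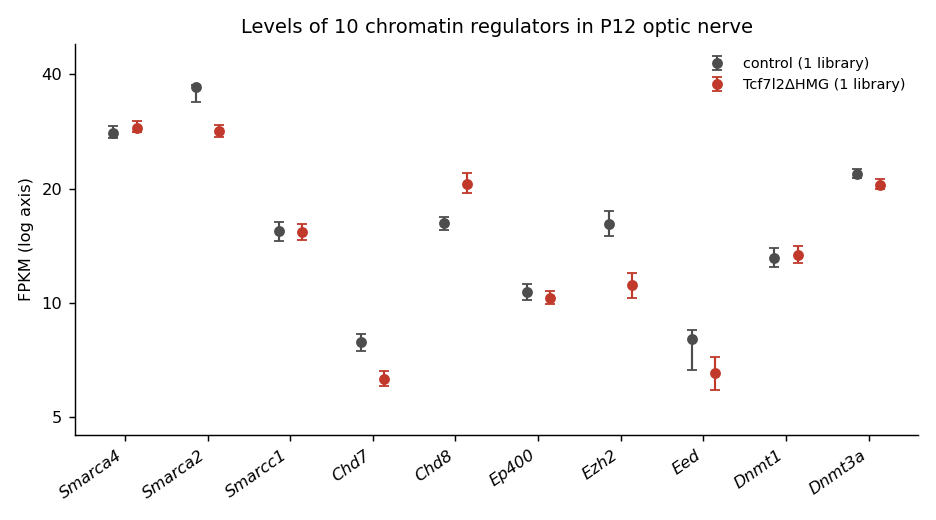
FPKM of each member (log axis) in the control library (grey) and the Tcf7l2ΔHMG library (red); bars are the Cufflinks confidence intervals. Smarca2, Chd7 and Ezh2 lie lower and Chd8 higher in the mutant, with bars that do not meet, while Smarca4, Smarcc1, Ep400 and Dnmt1 nearly coincide.

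For 5 of the 10 members the Cufflinks interval in 1 library lay clear of that in the other, 4 of them lower (Ezh2, Smarca2, Chd7 and Dnmt3a) and 1 higher (Chd8) in the mutant. Over all genes compared, 22.3% were lower and 30.0% higher with intervals that did not overlap, so such a gap between 2 libraries is common. With 1 library per genotype, a gap cannot be assigned to genotype. Each member's FPKM lay inside its own interval, which reached 2.62% to 11.96% of the midpoint to either side. Directions also depend on scale. When all rows of each library, unnamed ones included, were rescaled to the same sum, the median log2 ratio of all genes moved by −0.65. All 10 members were then below 0, Chd8 at −0.32 included, and 9 passed 1.5-fold as lower. So did 7398 of the 14199 genes compared, so a call as lower was common under this setting. Unnamed rows made up 70.7% (control) and 80.7% (mutant) of the sums before rescaling. With only named rows rescaled, the median of all genes moved by −0.07. The value of each member relative to all genes is therefore given beside its ratio.

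**Figure D2:**
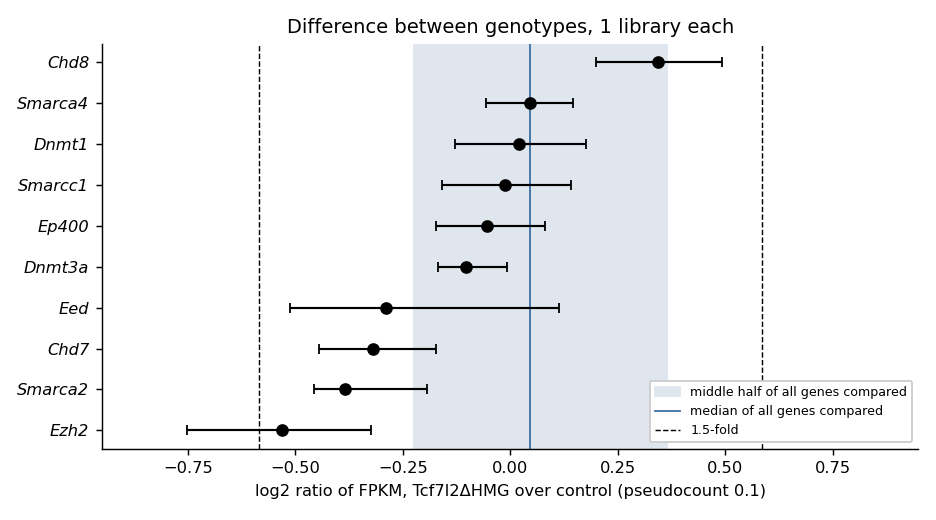
Log2 ratio of Tcf7l2ΔHMG to control FPKM for each member, with bars from the lowest to the highest ratio that the Cufflinks bounds allow; the shaded band spans the 25th to the 75th percentile of all genes compared, the blue line is their median and dashed lines mark 1.5-fold. The points of Ezh2, Smarca2, Chd7 and Eed lie left of the band, and no point passes a dashed line, although the bar of Ezh2 does.

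The BAF complex is represented by its alternative ATPases, Smarca4 and Smarca2 (Brm), of which each complex holds 1, and by the core subunit Smarcc1 (BAF155). The files place Smarca2 (mm9) on chromosome 19 from 26679650 to 26852812, with 2 groups of transcription starts that share its row. It was the highest of the members in the control at 36.9 FPKM (interval 33.7 to 37.5) and came next to Smarca4 in the mutant at 28.3 FPKM (interval 27.3 to 29.4). Its log2 ratio was −0.38, which lies 0.43 below the median of all genes, and 15.1% of genes had a lower ratio. Smarca4, which lies on chromosome 9 between 21420613 and 21508674, had 28.0 FPKM (27.2 to 29.2) in control nerves and 28.9 FPKM (28.1 to 30.1) in the mutant. Its log2 ratio of 0.05 lay at the median of all genes, and its sign also turned under scaling to the 75th percentile and under rescaling of named rows. Within a library, where scaling plays no part, the ratio of Smarca4 to Smarca2 was 0.759 in control nerves and 1.02 in the mutant, and the ranges allowed by the intervals, 0.724 to 0.868 and 0.956 to 1.10, did not meet. The ATPase with the higher level was thus Smarca2 in the control, and in the mutant the intervals of both overlapped.

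Smarcc1, on chromosome 9 from 110034524 to 110142682, was at 15.5 FPKM (14.6 to 16.4) in control nerves and 15.3 FPKM (14.6 to 16.1) in the mutant, a log2 ratio of −0.01, or −0.06 relative to the median of all genes. Its paralog Smarcc2 (BAF170) was higher, at 50.2 and 48.3 FPKM, and the ratio of Smarcc2 to Smarcc1 was 3.25 in control nerves and 3.15 in the mutant. The core subunits Smarcb1 (46.4 and 46.8 FPKM), Smarce1 (36.8 and 40.2 FPKM) and Arid1a (16.2 and 17.4 FPKM) had log2 ratios of 0.01, 0.13 and 0.10. The mutant value of Smarce1 lay above its own interval, and the intervals of Arid1a were wide, reaching 85.0 and 50.9 FPKM. Of 26 BAF genes listed, 25 were compared, with a median log2 ratio of 0.00. Of these, 1 was called higher and 1 lower. Actl6b, the neuronal form of an actin-like subunit, was called higher at 1.16 and 2.37 FPKM (log2 ratio 0.97), but its intervals overlapped. Dpf2, a zinc-finger subunit, was called lower at 50.5 and 22.7 FPKM, but its control row also holds Cdc42ep2 and its mutant row does not, so that these values do not measure the same thing. Without rows that hold several names, the median of the BAF genes was 0.01.

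**Figure D3:**
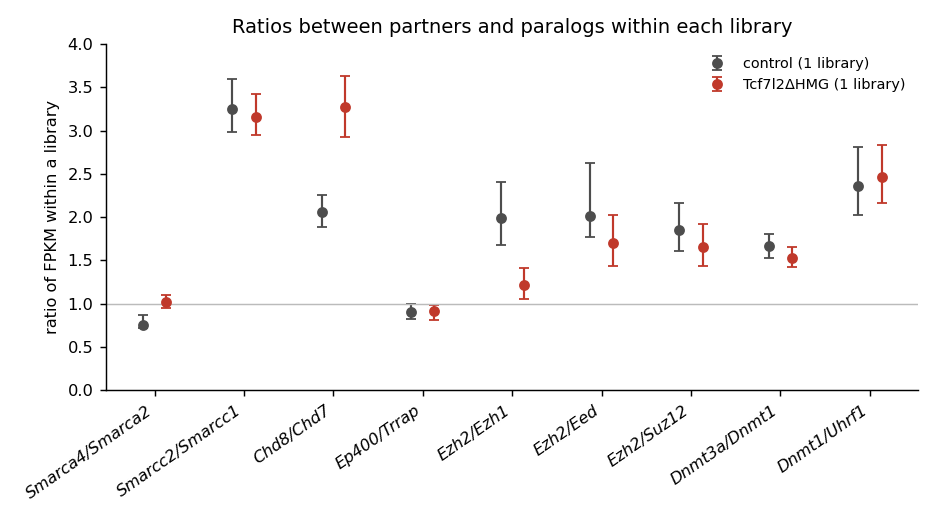
Ratio of FPKM between partners or paralogs within the control library (grey) and within the Tcf7l2ΔHMG library (red); bars span the ratios allowed by the Cufflinks bounds. Of the pairs drawn, bars of the libraries do not meet for Smarca4/Smarca2, Chd8/Chd7 and Ezh2/Ezh1. Nor do the ranges of Chd4/Chd3, a pair that is not drawn. How often this holds for other pairs of genes was not measured.

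Among the chromodomain remodellers, the log2 ratios of Chd7 and Chd8 had opposite signs, short of a call. Both were negative when all rows were rescaled (−0.97 and −0.32), a setting in which the median of all genes was −0.61. Chd7, which is mutated in CHARGE syndrome, lies on chromosome 4 from 8617553 to 8795596 and was the lowest of the members in both libraries, at 7.88 FPKM (7.48 to 8.26) in control nerves and 6.30 FPKM (6.04 to 6.62) in the mutant. Its log2 ratio of −0.32 lies 0.37 below the median of all genes. Chd8, a paralog linked to autism, lies on chromosome 14 from 52817826 to 52877428 and had 16.2 FPKM (15.6 to 16.9) in control nerves and 20.6 FPKM (19.4 to 21.9) in the mutant. Its log2 ratio was 0.34, which is 0.30 above the median of all genes, and 73.8% of genes had a lower ratio. Among the members ordered by level, Chd8 was at rank 4 in the control, where its interval overlapped that of Ezh2, and at rank 3 in the mutant, where it overlapped that of Dnmt3a. The small nucleolar RNA Snord8 lies within the Chd8 row and was listed at 0 FPKM in control nerves and 14.4 FPKM in the mutant, and its part in the Chd8 value was not tested. The ratio of Chd8 to Chd7 within a library was 2.06 in the control (1.88 to 2.26) and 3.27 in the mutant (2.93 to 3.63).

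None of the 9 CHD genes was called, and their median log2 ratio was 0.05. Chd4 and Chd3, the alternative ATPases of the NuRD complex, were the highest, at 53.0 and 54.8 FPKM for Chd4 (log2 ratio 0.05) and 42.7 and 34.4 FPKM for Chd3 (log2 ratio −0.31). The ratio of Chd4 to Chd3 within a library was 1.24 in the control (1.17 to 1.32) and 1.59 in the mutant (1.52 to 1.68). These ranges did not meet either, so this is not particular to pairs that hold a member. Intervals did not overlap for Chd3, Chd6 (11.2 and 9.36 FPKM) and Chd7, which were lower in the mutant, nor for Chd8, Chd9 (5.31 and 7.45 FPKM) and Chd5 (1.73 and 2.56 FPKM), which were higher. Chd1 (4.496 and 4.30 FPKM) and Chd2 (7.68 and 8.24 FPKM, in rows that hold another gene name) had log2 ratios of −0.06 and 0.10. Among 9 NuRD genes other than histone deacetylases, none was called and the median was 0.01, with Rbbp7 (62.1 and 59.4 FPKM) and the methyl-CpG-binding subunit Mbd3 (51.3 and 57.1 FPKM) at the top. Both values of Rbbp7 lay above their own intervals. None of 7 genes of the ISWI remodellers was called, and their median was 0.03. Of their ATPases, Smarca5 was at 19.8 and 15.1 FPKM (log2 ratio −0.39) and Smarca1 at 3.99 and 4.54 FPKM (log2 ratio 0.18, with overlapping intervals). Baz1b was at 22.3 and 22.7 FPKM (log2 ratio 0.02).

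Ep400 encodes the large ATPase that exchanges histones in the p400/TIP60 complex. It lies on chromosome 5 from 111093392 to 111199780 and was at 10.7 FPKM (10.2 to 11.2) in control nerves and 10.3 FPKM (9.95 to 10.8) in the mutant, a log2 ratio of −0.05, or −0.10 relative to the median of all genes. It differed little from its scaffold partner Trrap, at 11.8 and 11.2 FPKM, and the ratio of Ep400 to Trrap was 0.905 in control nerves and 0.922 in the mutant. The acetyltransferase Kat5 (TIP60) was at 17.2 and 20.9 FPKM (log2 ratio 0.28) and Ino80, the ATPase of a related complex, at 7.69 and 8.69 FPKM (log2 ratio 0.17), both with overlapping intervals. Of the 17 genes of these complexes listed, 16 were compared, with a median log2 ratio of 0.13. Srcap was not matched in the files and was not analysed here. The highest were Morf4l1, at 164 and 135 FPKM (log2 ratio −0.28), and the helicase Ruvbl2, at 22.3 and 25.6 FPKM (log2 ratio 0.20). The small subunits Meaf6 (14.0 and 31.1 FPKM, log2 ratio 1.15) and Mrgbp (5.96 and 9.89 FPKM, log2 ratio 0.72) were called higher, and the mutant value of Meaf6 lay above its own interval of 21.5 to 26.3 FPKM.

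PRC2 consists of a methyltransferase, Ezh2 or Ezh1, with Eed, which binds the mark it makes, and Suz12. Ezh2, on chromosome 6 from 47480273 to 47545189, had the largest difference of the members. It had 16.1 FPKM (15.0 to 17.5) in control nerves and 11.1 FPKM (10.3 to 11.98) in the mutant, a log2 ratio of −0.53 or a drop by 31.0%. This is 0.58 below the median of all genes, and 10.1% of genes had a lower ratio. By level it was at rank 5 in the control, between Chd8 and Smarcc1 with overlapping intervals, and at rank 7 in the mutant, where its interval overlapped that of Ep400. The range of log2 ratios that its bounds allow, −0.75 to −0.32, includes the 1.5-fold cutoff, and rescaling of named rows alone moved it past that cutoff, to −0.60. Eed, on chromosome 7 from 97103164 to 97129486, was at 8.04 FPKM (6.66 to 8.47) in control nerves and 6.56 FPKM (5.90 to 7.21) in the mutant, a log2 ratio of −0.29, or −0.34 relative to the median of all genes. Its intervals overlapped and were the widest relative to level among the members, so a difference in Eed was not detectable within these bounds.

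The other subunits of PRC2 varied, and none was called. Suz12 was at 8.70 and 6.72 FPKM (log2 ratio −0.37), Jarid2, which recruits the complex, at 11.8 and 9.19 FPKM (−0.35) and the histone-binding Rbbp4 at 49.5 and 39.1 FPKM (−0.34), each with intervals that did not overlap. The intervals of the remaining 6 overlapped. Of these, Rbbp7, the highest of the list, had a log2 ratio of −0.06. Ezh1, the form found in non-dividing cells, was at 8.09 and 9.12 FPKM (log2 ratio 0.17), with overlapping intervals. Over 11 PRC2 genes the median log2 ratio was −0.29, compared with 0.05 over all genes, and 8 were below and 3 above 0. The ratio of Ezh2 to Ezh1 within a library was 1.996 in the control (1.68 to 2.41) and 1.22 in the mutant (1.06 to 1.41). By contrast, the ratio of Ezh2 to Eed (2.01 and 1.70) and to Suz12 (1.86 and 1.66) had ranges that met. Of the enzymes that remove the mark, Kdm6a was at 7.75 and 7.71 FPKM, and Kdm6b, at 8.68 FPKM in the control, was listed at 0 with a failed Cufflinks status in the mutant and was not compared.

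PRC1 is the other Polycomb complex and ubiquitinates histone H2A. Of its 20 genes, 3 were called higher and 2 lower, shares near those of all genes (15.4% and 8.52%), with a median log2 ratio of 0.06. Bmi1, a ring-finger subunit linked to self-renewal, was called lower, at 19.1 FPKM in control nerves and 8.90 FPKM in the mutant (log2 ratio −1.09), and Phc1 likewise, at 45.7 and 27.5 FPKM (−0.73). The Bmi1 paralog Pcgf2 was called higher, at 6.94 and 11.02 FPKM (0.66), as were the catalytic partner Ring1, at 9.51 and 15.4 FPKM (0.69), and the chromodomain subunit Cbx7, at 2.66 and 5.10 FPKM (0.92). Intervals did not overlap for any of these 5 genes. Phc2, the highest with Phc1, was at 44.5 and 43.8 FPKM (−0.02).

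**Figure D4:**
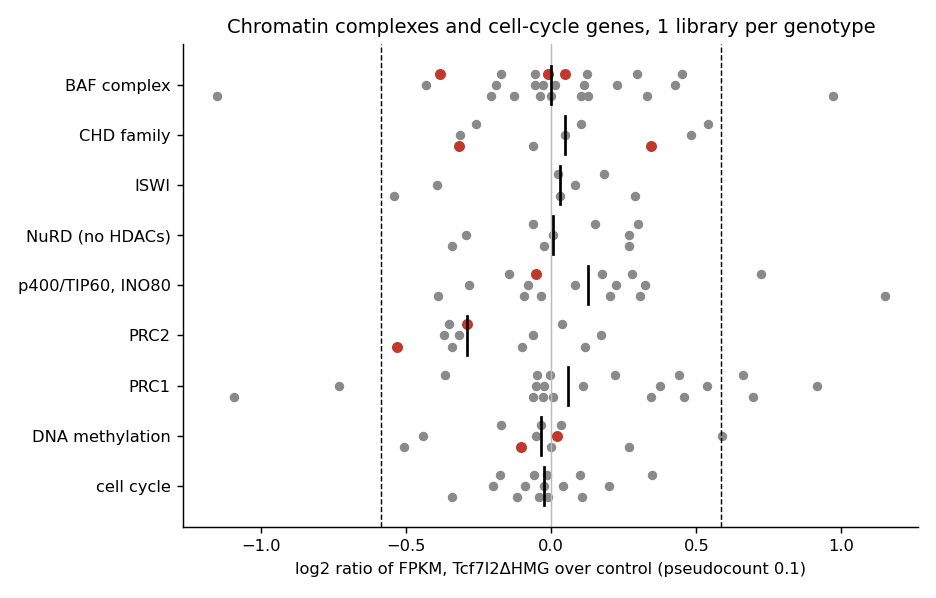
Log2 ratio of Tcf7l2ΔHMG to control FPKM for each compared gene of the chromatin complexes and of a cell-cycle list (points; members in red), with the median of each list as a black bar and 1.5-fold as dashed lines; Rbbp4, Rbbp7 and Mbd2 belong to several lists. PRC2 has the lowest median, −0.29, and points of PRC1 lie past 1.5-fold on both sides.

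Dnmt1, which copies DNA methylation after replication, lies on chromosome 9 from 20711650 to 20764332. It had 13.2 FPKM (12.5 to 13.97) in control nerves and 13.4 FPKM (12.8 to 14.1) in the mutant, a log2 ratio of 0.02, or −0.03 relative to the median of all genes. Its partner Uhrf1 was at 5.57 and 5.43 FPKM, and the ratio of Dnmt1 to Uhrf1 was 2.37 and 2.46. Dnmt3a, which methylates unmodified DNA, lies on chromosome 12 from 3806584 to 3914443 and was at 21.9 FPKM (21.3 to 22.5) in control nerves and 20.4 FPKM (19.995 to 21.2) in the mutant. Its log2 ratio was −0.10, or −0.15 relative to the median of all genes, and although its intervals did not overlap, the gap between them was small. Each of these genes has 3 groups of transcription starts in 1 row, so isoforms were not separated. Dnmt3a thus exceeded Dnmt1 by 1.66 times in control nerves and 1.53 times in the mutant, with ranges that met.

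The remaining genes of DNA methylation included Dnmt3b, at 0.824 and 0.788 FPKM, which was below the filter. The TET enzymes, which oxidize methylcytosine, were at 3.23 and 3.12 FPKM for Tet1 (log2 ratio −0.05), 8.92 and 6.54 FPKM for Tet2 (−0.44) and 10.3 and 7.19 FPKM for Tet3 (−0.51), and the intervals of Tet2 and Tet3 did not overlap. Of 13 genes listed, 11 were compared, with a median log2 ratio of −0.04. Mbd1, a methyl-CpG-binding repressor, was called higher at 12.9 and 19.5 FPKM (log2 ratio 0.59), just past the cutoff. Mbd2 was at 29.3 and 35.3 FPKM (0.27) and the glycosylase Tdg, in a row with another gene, at 31.4 and 27.9 FPKM (−0.17). Over all chromatin lists, 111 different genes were listed and 106 compared, of which 7 were called higher and 3 lower (6.60% and 2.83%, compared with 15.4% and 8.52% of all genes), none of them a member. The 3 include Dpf2, whose rows differ between the libraries.

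Ezh2 and Dnmt1 are also known to be transcribed in dividing cells. None of 15 cell-cycle genes was called, compared with 15.4% of all genes called higher and 8.52% called lower. Their median log2 ratio was −0.02. Intervals did not overlap for Mki67, which was higher, nor for Pcna and Rrm2 (11.2 and 8.80 FPKM, log2 ratio −0.34), which were lower. The proliferation marker Mki67 was at 8.99 and 11.5 FPKM (log2 ratio 0.35), Top2a at 13.6 and 12.5 FPKM (−0.12) and Pcna at 77.9 and 68.9 FPKM (−0.18). Both values of Pcna lay above their own intervals. Markers of cell types also differed between the libraries, which does not measure the number of cells. All 8 markers of OLs were lower, 6 of them by more than 1.5-fold (median log2 ratio −0.94, summed level 31579 FPKM in control nerves and 18087 FPKM in the mutant), and 2 of the 3 lineage factors Olig1, Olig2 and Sox10 were called lower (513 and 257 FPKM summed). Of 4 precursor markers (339 and 272 FPKM summed), Gpr17 was called lower, at 235 and 156 FPKM, and carried the difference of the sum. Pdgfra was at 35.9 and 33.6 FPKM and Cspg4 at 9.93 and 8.06 FPKM, whereas Ptprz1 was higher, at 57.8 and 74.1 FPKM. Summed markers were higher in the mutant for astrocytes (4882 and 5701 FPKM, 1 of 6 called), microglia (165 and 208 FPKM, 0 of 6 called), meningeal fibroblasts (762 and 1073 FPKM, 1 of 4 called), neurons (20.4 and 37.5 FPKM, 4 of 4 called) and red blood cells (133 and 334 FPKM, 3 of 3 called). Gfap made up most of the astrocyte sum, at 4059 and 4729 FPKM. Of the 6 astrocyte markers, 5 had a log2 ratio above 0, whereas Aqp4 was lower, at 182 and 148 FPKM. Of the 6 microglia markers, 5 had a log2 ratio above 0, whereas Aif1 was lower, at 11.7 and 8.73 FPKM, with overlapping intervals. C1qa was the highest of the 6, at 68.5 and 95.0 FPKM, and its mutant value lay above its own interval of 74.9 to 83.0 FPKM. Of the red blood cell markers, Hbb-b1 and Hba-a1 were in rows that hold other gene names, and the mutant value of Hba-a1 lay above its own interval. Alas2 (0.607 and 1.39 FPKM) and the neuronal Rbfox3 (0.658 and 1.51 FPKM) reached 1 FPKM only in the mutant. The sum was 119 and 104 FPKM for endothelium, where Cldn5 was at 64.1 and 43.7 FPKM and Cdh5, at 20.9 and 31.6 FPKM, was the 1 of 5 called, as higher. It was 95.4 and 78.3 FPKM for pericytes and smooth muscle, where Rgs5 was called lower, at 63.0 and 40.5 FPKM, and Pdgfrb was at 18.6 and 22.5 FPKM. Schwann cell markers summed to 2.69 and 1.18 FPKM. No marker was at 0. The part of these differences in the values of the members was not tested.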

How the data were processed

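RNA-seq libraries of optic nerves from control and Tcf7l2ΔHMG mice (1 each) were used. According to the study's methods and the processing notes in the labels, the authors used TopHat to align reads to mm9 and Cufflinks to obtain FPKM (versions not given in the sources used here). Each row of the deposited files holds an FPKM value, a confidence interval and a status. Unnamed rows held 70.7% (control) and 80.7% (mutant) of all FPKM and were not joined between libraries. Starts were converted to count from 1.

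Names merged by commas were split, rows of a symbol were summed, and genes with status OK in both libraries and at least 1 FPKM in 1 or both were compared (14199 of 23951), with a pseudocount of 0.1 and a cutoff of 1.5-fold. No test was run. Depth was the number of fragments per library at which 364 (control) and 677 (mutant) interval bounds of unnamed rows under 100 bases came closest to whole fragments, the farthest within 0.00151 of a whole number. The counting was tested on simulated data.

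The members, lists and comparisons were chosen with earlier results of these data known. Named are all members, Tcf7l2, every called gene of the lists, the highest 2 of each list by mean FPKM, and fixed partners and paralogs. Jarid2, Mki67, Rrm2, Smarca1, Kdm6b, Snord8 and single cell-type markers fell outside this rule and were named after their values were seen. With 2 libraries, likeness of pattern between genes was not measured. Promoters and motifs were read from RefSeq (GRCm38.p6), while gene positions are those of the files (mm9). Python 3.11.15, numpy 2.4.6, pandas 2.3.3 and matplotlib 3.10.9 were used.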

Additional observations from a re-analysis of the deposited data

How the results depend on the processing

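With pseudocounts of 1 or 0.01, centring, scaling to the 75th percentile, or interval midpoints in place of FPKM, 0 of the 10 members passed 1.5-fold. Midpoints were chosen after seeing the data. Other filters on FPKM or status, the highest row per symbol and merged rows left out could not change this count. Each member had 1 row per library with no other gene name, a status of OK and at least 6.30 FPKM. Nor could a fold above 2 be passed where 1.5-fold was not. Rescaling all rows to a common sum changed most: 9 members passed as lower, their median log2 ratio became −0.74, and over all genes 640 were higher and 7398 lower, in place of 2185 and 1210. Rescaling named rows to that sum let 1 member, Ezh2, pass as lower. Requiring at least 5 FPKM in 1 library left 1290 higher genes, and a fold above 2 left 975 higher and 522 lower. The single log2 ratios of all 10 members moved by more than their Cufflinks interval under the first rescaling and by less under every other setting run. The sign of Smarca4 and Dnmt1 turned under both rescalings and under 75th percentile scaling, that of Dnmt1 also under centring, and that of Chd8 under the first rescaling. No paired analysis was possible because there was 1 library per genotype, and for the same reason no library could be left out.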
